A study of Mus musculus with 4 samples.

Results

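The mitochondrially encoded subunits of respiratory complex I are the 7 genes of the mitochondrial genome whose symbols begin with mt-Nd, namely mt-Nd1, mt-Nd2, mt-Nd3, mt-Nd4, mt-Nd4l, mt-Nd5 and mt-Nd6. The rule that selects them uses the gene symbol and no measured value. All 7 were found among the 11502 gene symbols of the deposited table, each with 1 transcript, and all 7 were among the 10604 genes kept for comparison, which averaged 1 FPKM or more over the 4 libraries. FPKM counts sequenced fragments, divided by transcript length and by the size of the library. RNA was measured in HT-22 cells, an immortalized line from mouse hippocampal neurons. The groups were cells that carried a negative control lentivirus and are otherwise labelled wild type (Ctrl), cells with lentiviral overexpression of PGC-1α (PGC-1α), and the same 2 kinds of cells subjected to oxygen-glucose deprivation, or OGD (named Ctrl+OGD and PGC-1α+OGD). Deprivation took 2 h, after which the cells spent 24 h in normal medium. All cells had been selected with puromycin, and the promoter that drives the transgene is not stated in the sources used here. Each group had 1 library, so no difference described here has a replicate check or a p value.

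Complex I passes electrons from NADH to coenzyme Q and pumps protons across the inner mitochondrial membrane. Its 7 mitochondrially encoded proteins form the core of the membrane arm, while the other subunits are made in the cytosol from nuclear genes and imported. In the membrane arm, ND2, ND4 and ND5 resemble antiporters and carry out proton pumping, ND1 helps to form the pocket where coenzyme Q binds, and ND3, ND4L and ND6 lie between this pocket and the pumps. The mitochondrial genome is transcribed into long polycistronic RNAs, which are cut at the tRNAs between the genes. Of the members, only mt-Nd6 is encoded on the opposite strand, and its mRNA is known to carry little or no poly(A) tail. PGC-1α acts in the nucleus, where it promotes the transcription of genes for mitochondrial proteins.

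The starts of the 7 coding sequences are shown because they identify the measured transcripts. None of the annotated transcripts has a leader before the start codon. All positions are on the mitochondrial chromosome (chrM) of GRCm38, the sequences come from the GENCODE release M21 transcripts, each is read from 5′ to 3′ in the sense of its mRNA, and the start codon is in capitals.
mt-Nd1 (chrM:2751-2780, plus strand): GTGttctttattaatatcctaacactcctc
mt-Nd2 (chrM:3914-3943, plus strand): ATAaatcctatcacccttgccatcatctac
mt-Nd3 (chrM:9459-9488, plus strand): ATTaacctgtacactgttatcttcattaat
mt-Nd4l (chrM:9877-9906, plus strand): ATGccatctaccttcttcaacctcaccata
mt-Nd4 (chrM:10167-10196, plus strand): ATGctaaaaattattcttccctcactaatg
mt-Nd5 (chrM:11742-11771, plus strand): ATCaatattttcacaacctcaatcttatta
mt-Nd6 (chrM:14041-14070, minus strand): ATGaataattatatttttgttttaagttca
Only mt-Nd4l, mt-Nd4 and mt-Nd6 begin with ATG. The genes are mt-Nd1 from 2751 to 3707 (957 bases, 318 codons before the stop), mt-Nd2 from 3914 to 4951 (1038 bases, 345 codons), mt-Nd3 from 9459 to 9806 (348 bases, 115 codons), mt-Nd4l from 9877 to 10173 (297 bases, 98 codons), mt-Nd4 from 10167 to 11544 (1378 bases, 459 codons), mt-Nd5 from 11742 to 13565 (1824 bases, 607 codons) and mt-Nd6 from 13552 to 14070 (519 bases, 172 codons). Each is a single exon without introns. The annotated mt-Nd4 transcript ends after the first base of its stop codon, in capitals here, and mitochondrial mRNAs of this kind are known to gain the rest of the stop codon with the poly(A) tail.
mt-Nd4, last bases (chrM:11515-11544, plus strand): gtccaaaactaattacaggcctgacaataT

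Members overlap at 2 places, which are shown because reads that cross them can be assigned to either gene. The last 7 bases of mt-Nd4l are the first 7 of mt-Nd4 on the same strand, and both coding sequences are carried by the same mRNA. The last 14 bases of mt-Nd5 lie on the opposite strand from the last 14 of mt-Nd6. The overlaps are in capitals, on the plus strand.
mt-Nd4l into mt-Nd4 (chrM:10137-10203): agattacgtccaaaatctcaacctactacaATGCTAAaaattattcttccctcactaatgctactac
mt-Nd5 into mt-Nd6 (chrM:13522-13595): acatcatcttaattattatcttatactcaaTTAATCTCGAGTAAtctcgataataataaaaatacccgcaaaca
The library kit keeps strand information, but whether strand was used to assign reads is not stated. If it was not, reads of plus-strand RNA from anywhere across mt-Nd6 could be counted for it. The level of mt-Nd6 and its ratio to mt-Nd5 are therefore uncertain. The strand of origin shows in the base composition. Guanine made up between 8.0% and 11.6% of the 6 plus-strand members and 28.1% of mt-Nd6, which in turn held 5.97% cytosine, against at least 22.1% in each of the others.

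Mouse nuclear chromosomes hold copies of mitochondrial DNA, and the members differed widely in how much sequence they share with annotated copies. Of all 31-base stretches of mt-Nd3, 98.1% also occur in Gm28438, and of those of mt-Nd4l, 98.9% occur in Gm10222. For mt-Nd4, 62.8% occur in Gm28439. These 3 pseudogenes lie next to each other on chromosome 1. The share was 16.8% for mt-Nd5, 13.5% for mt-Nd2 and 7.36% for mt-Nd6, and 0 of 927 stretches of mt-Nd1 were found in another annotated transcript. None of these pseudogenes was among the genes of the table, so how reads that fit both places were divided cannot be told from it. The levels of mt-Nd3, mt-Nd4l and mt-Nd4 are therefore uncertain, and the part of these copies in their values was not tested.

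The table gives values for 25889 transcripts, with column totals between 331892 and 353381. It does not name its unit, and the number of reads behind a value is unknown. The introduced gene, Ppargc1a, was measured at 35.1 FPKM in the PGC-1α library against 0.90 FPKM in its control, and after OGD at 8.41 FPKM against 0.103 FPKM. Of 14 neuronal marker genes, 1 was among the genes of the table, Camk2a, at 4.40 to 7.31 FPKM. Common genes such as Tubb3, one of these markers, are not in the table used here for reasons that are not known, so the label of hippocampal neurons could not be checked well. Of 12 markers of glia, microglia and endothelium, 3 were among them, and their summed level was 7.11 to 8.30 FPKM. The lowest maximum of a transcript over the 4 libraries was 0.5 FPKM, and whether the authors filtered on it is not stated.

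Of the 7 members, 5 were among the 56 most abundant genes of the table in each library, and mt-Nd6 and mt-Nd3 were lower. The libraries were made from RNA selected by its poly(A) tail, which mt-Nd6 mRNA largely lacks. Values of mt-Nd6 and differences between them can thus depend on its capture as well as its level, which was not tested. They ranked in the same order in all 4 libraries, from mt-Nd1 down through mt-Nd5, mt-Nd4, mt-Nd2, mt-Nd4l and mt-Nd6 to mt-Nd3. The level of mt-Nd1 was 15.8 to 19.7 times that of mt-Nd3 on the FPKM scale, which divides by transcript length. In PGC-1α, mt-Nd1 was the second most abundant gene of the table, after mt-Co1, whereas mt-Nd3 held rank 358. Over the 4 libraries, the ranges of mt-Nd1 and mt-Nd5 overlapped, as did those of mt-Nd5 and mt-Nd4 and those of mt-Nd4 and mt-Nd2. Ranges did not overlap between mt-Nd2 and mt-Nd4l, between mt-Nd4l and mt-Nd6, or between mt-Nd6 and mt-Nd3.

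**Figure D1:**
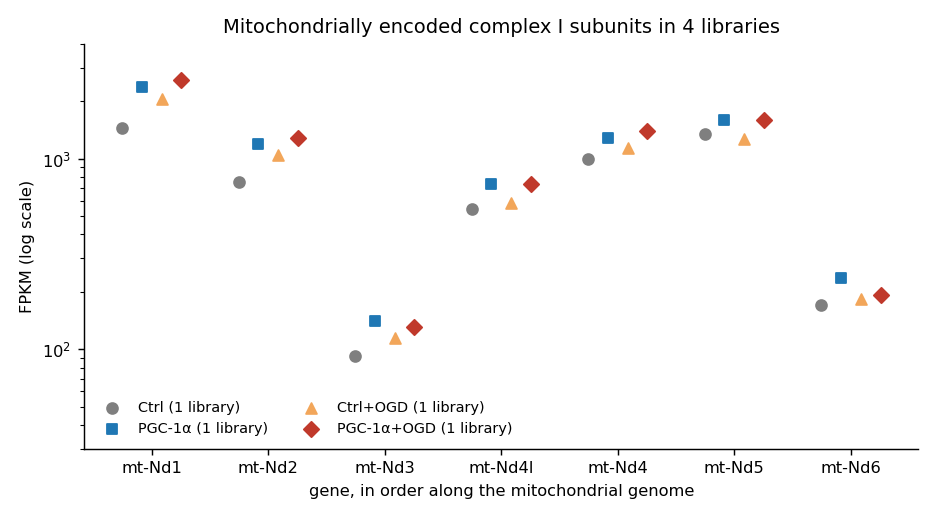
FPKM on a log axis for each of the 7 genes, with 1 point for each library and no error bars because each group has 1 library. For mt-Nd1 the points run from 1449 in Ctrl to 2579 in PGC-1α+OGD, and for each gene both PGC-1α libraries lie above both control libraries.

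For the antiporter-like subunits, the values were as follows. The level of mt-Nd2 was 756 FPKM without and 1040 FPKM with OGD in control cells, against 1191 FPKM and 1280 FPKM in PGC-1α cells. That of mt-Nd4 was 992 FPKM without and 1134 FPKM with OGD in control cells, against 1281 FPKM and 1394 FPKM in PGC-1α cells. For mt-Nd5, it was 1351 FPKM without and 1275 FPKM with OGD in control cells, against 1594 FPKM and 1598 FPKM in PGC-1α cells. All of these genes were highest in PGC-1α+OGD. Ctrl was the lowest library for mt-Nd2 and mt-Nd4, whereas mt-Nd5 was lowest in Ctrl+OGD.

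In the subunits at the coenzyme Q end, mt-Nd1 was at 1449 FPKM without and 2056 FPKM with OGD in control cells, against 2364 FPKM and 2579 FPKM in PGC-1α cells. The level of mt-Nd3 was 91.7 FPKM without and 115 FPKM with OGD in control cells, against 139.98 FPKM and 131 FPKM in PGC-1α cells. For mt-Nd4l, it was 542 FPKM without and 588 FPKM with OGD in control cells, against 739 FPKM and 733 FPKM in PGC-1α cells. Of the last 2 genes named, both were highest in PGC-1α. That of mt-Nd6, also highest in PGC-1α, was 171 FPKM without and 184 FPKM with OGD in control cells, against 236 FPKM and 191 FPKM in PGC-1α cells. Ctrl was the lowest library for all 4 of these genes. Across both sets, each of the 7 members was higher in both PGC-1α libraries than in both control libraries, which was also so for 12.8% of all 10604 genes. This was also found for the 6 other mitochondrially encoded subunits and for 27 of the 36 nuclear-encoded complex I subunits tested.

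Summed over the 7 genes, control cells had 5352 FPKM without and 6392 FPKM with OGD, and PGC-1α cells had 7545 FPKM and 7907 FPKM. These sums made up 1.61%, 1.81%, 2.23% and 2.28% of the column totals in the same order. In cultured cells measured in bulk, more mitochondrial RNA per cell and a larger share of cells rich in it cannot be told apart.

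The comparison of PGC-1α with Ctrl asks what overexpression does in cells without OGD. All 7 members were higher in the PGC-1α library, with a median difference of 0.46 on the log2(FPKM + 1) scale, on which all fold changes are given here. The median of all 10604 genes was -0.03, and 45.8% of them were higher. Of the members, 3 were at least 1.5-fold higher and none was lower by as much, where 4.91% of all genes were higher and 5.63% were lower. They were mt-Nd1, with a log2 fold change of 0.71, mt-Nd2, with 0.65, and mt-Nd3, with 0.60. The 1.5-fold line lies at 0.585 on this scale, so mt-Nd3 was just above it, and it was at 0.58, just below the line, when all libraries were scaled to the same total. The other values were 0.46 for mt-Nd6, 0.45 for mt-Nd4l, 0.37 for mt-Nd4 and 0.24 for mt-Nd5. Of the 582 most abundant genes, those that averaged 100 FPKM or more, 4.98% were at least 1.5-fold higher. In that set, 1.55% of genes had a larger log2 fold change than mt-Nd1, and 28.7% had a larger one than mt-Nd5.

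Along the plus strand, the difference between PGC-1α and Ctrl became smaller with each member from mt-Nd1 to mt-Nd5. Over these 6 genes, Pearson's r between start position and log2 fold change was -0.87 and Spearman's rho was -1. Over all 12 plus-strand subunits, which include those of the other complexes, r was -0.51 and rho was -0.41. Genes of 1 library pair are not independent of each other, so these values are a description without a test. The order was much the same in Ctrl+OGD vs Ctrl, which involves no PGC-1α and shares the Ctrl library (r = -0.90 and rho = -0.94 over the 6 members, r = -0.64 and rho = -0.45 over the 12 subunits). The subunits of other complexes broke the order, since mt-Co1, which follows mt-Nd2, had a log2 fold change of 0.16. Among the other complexes, the values were 0.38 for mt-Co2 and 0.30 for mt-Co3, which encode subunits of cytochrome c oxidase, 0.45 for mt-Atp8 and 0.19 for mt-Atp6, of ATP synthase, and 0.23 for mt-Cytb, of complex III. Their median was 0.27, and none of the 6 was at least 1.5-fold higher.

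**Figure D2:**
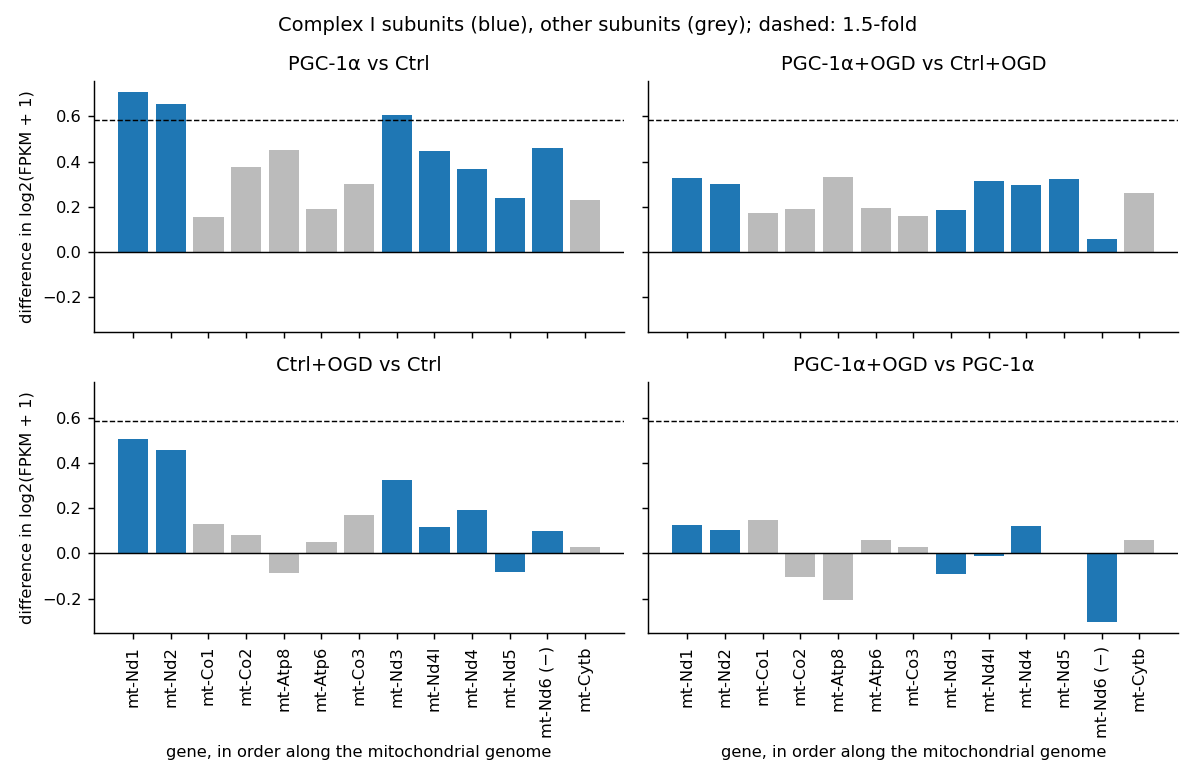
Difference in log2(FPKM + 1) for the 13 mitochondrially encoded subunits, in genome order, in each of the 4 comparisons, with complex I in blue, other complexes in grey and a dashed line at 1.5-fold; (−) marks the gene on the minus strand. In PGC-1α vs Ctrl the bars of mt-Nd1, mt-Nd2 and mt-Nd3 cross the line, and no bar does so in the other comparisons.

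With OGD, all 7 members were again higher in the PGC-1α library than in its control. For 6 of them, all but mt-Nd5, the difference was smaller than without OGD. The same held for 3 of the 6 subunits of other complexes. The share of all genes with a smaller difference was not counted, so the count of members has no such background. In PGC-1α+OGD vs Ctrl+OGD, the members had a median log2 fold change of 0.30, while that of all genes was -0.01. None of the members was at least 1.5-fold higher or lower, where 3.08% of all genes were higher and 3.82% were lower. Of the 7 values, 5 lay between 0.30 and 0.33, namely those of mt-Nd1, mt-Nd2, mt-Nd4, mt-Nd4l and mt-Nd5. The 2 others were 0.19 for mt-Nd3 and 0.06 for mt-Nd6. Abundant genes spread little in this comparison, since 0.515% of the same 582 genes were 1.5-fold higher. Among them, 3.95% had a larger log2 fold change than mt-Nd1, and 24.1% had a larger one than mt-Nd6. There was no trend with position over the 6 plus-strand members (r = -0.19, rho = -0.14). The 6 subunits of other complexes had a median of 0.19.

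The difference between these comparisons was largest for the genes at the start of the genome and for mt-Nd3 and mt-Nd6. When the log2 fold change without OGD was subtracted from that with OGD, the result was -0.42 for mt-Nd3, -0.40 for mt-Nd6, -0.38 for mt-Nd1 and -0.35 for mt-Nd2. It was -0.13 for mt-Nd4l, -0.07 for mt-Nd4 and 0.09 for mt-Nd5. The median over the members was -0.35, against -0.06 over the 6 subunits of other complexes and 0.01 over all genes. With 1 library in each group, this difference could not be tested.

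After OGD, control cells had a higher level of 6 of the 7 members, against 48.0% of all genes and 76.5% of the 582 most abundant genes. Of the 6 subunits of other complexes, 5 were higher too. In Ctrl+OGD vs Ctrl, the log2 fold change was 0.50 for mt-Nd1, 0.46 for mt-Nd2, 0.32 for mt-Nd3, 0.19 for mt-Nd4, 0.12 for mt-Nd4l and 0.10 for mt-Nd6, and it was -0.08 for mt-Nd5. Their median was 0.19, whereas all genes had a median of -0.02. None of the 7 was at least 1.5-fold higher or lower, where 6.20% of all genes were higher and 7.71% were lower. Abundant genes as a whole were higher in this comparison, with a median of 0.18 over the same 582 genes, so that the members lay near the level of other abundant genes. This comparison uses the same Ctrl library as PGC-1α vs Ctrl, and a low value in that library raises both. With libraries scaled to the same total, the median of the members was 0.10.

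In PGC-1α cells, OGD left the median of the members close to where it was, while mt-Nd6 was lower. The median log2 fold change of the members in PGC-1α+OGD vs PGC-1α was 0.00, as it was over all genes. Over the 582 genes that averaged 100 FPKM or more, it was 0.09. Among these, 41.2% had a larger log2 fold change than mt-Nd1, and 93.6% had a larger one than mt-Nd6. None of the members passed 1.5-fold, where 3.82% of all genes were higher and 5.22% were lower. The value was 0.13 for mt-Nd1, 0.12 for mt-Nd4, 0.10 for mt-Nd2, 0.00 for mt-Nd5, -0.01 for mt-Nd4l, -0.09 for mt-Nd3 and -0.30 for mt-Nd6. Short transcripts had the lower values. The 3 members with negative values, of 297 to 519 bases, are the shortest. Over all 13 mitochondrially encoded subunits, r between log2 length and log2 fold change was 0.68 and rho was 0.71. In PGC-1α vs Ctrl the same values were -0.37 and -0.44, and whether fragment size differed between the libraries was not tested.

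Ratios within a library do not depend on scaling between libraries, so each member was also set against the median of the 6 subunits of other complexes in the same library. In all 4 libraries, this median lay midway between mt-Atp6 and mt-Atp8, which overlap. Of the 31-base stretches of mt-Co2, mt-Co3, mt-Atp6 and mt-Co1, 100%, 99.9%, 99.5% and 63.9% also occur in annotated nuclear genes. For mt-Atp8 and mt-Cytb, 7.47% and 6.55% do. The reference is therefore uncertain too, and the part of these copies in it was not tested. On the log2 scale, the ratio of mt-Nd1 to this median was 0.12 without and 0.65 with OGD in control cells, and 0.49 and 0.71 in PGC-1α cells. For mt-Nd2, it was -0.82 and -0.34 in control cells, and -0.49 and -0.30 in PGC-1α cells. Ctrl was the library that stood apart for both genes. The ratio of mt-Nd5 stayed between -0.07 and 0.02 in all libraries. Consequently, mt-Nd1 was at 1.07 times the level of mt-Nd5 in Ctrl, 1.48 times in PGC-1α and 1.61 times in both OGD libraries. The 7 members together made up 38.2% of the summed FPKM of the 13 subunits in Ctrl, and between 41.4% and 42.8% in the other 3 libraries.

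**Figure D3:**
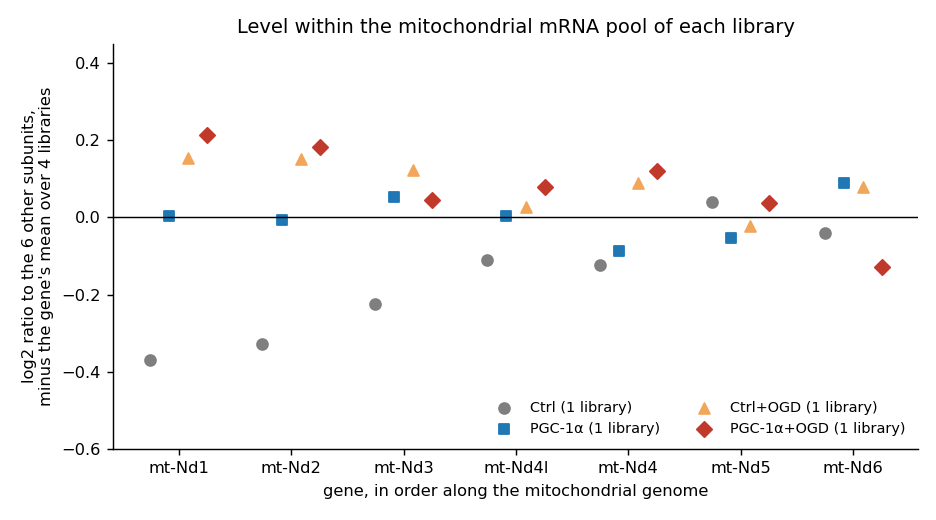
For each gene, the log2 ratio to the median of the 6 other mitochondrially encoded subunits of the same library, minus the mean of this ratio over the 4 libraries, with 1 point for each library. Ctrl lies at -0.37 for mt-Nd1, -0.33 for mt-Nd2 and -0.22 for mt-Nd3, below the other 3 libraries. For mt-Nd5 all 4 points lie between -0.05 and 0.04.

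Ratios between members varied to different degrees over the 4 libraries. The level of mt-Nd1 was 1.92 to 2.01 times that of mt-Nd2, a spread of 1.05-fold between the lowest and the highest library. The level of mt-Nd4l was 0.519 to 0.577 times that of mt-Nd4, a spread of 1.11-fold. The ratio of mt-Nd6 to mt-Nd5, which lie on opposite strands, was 0.127 and 0.144 in control cells without and with OGD, and 0.148 and 0.120 in PGC-1α cells, a spread of 1.24-fold. The ratio of mt-Nd3 to mt-Nd4 had a spread of 1.18-fold, and that of mt-Nd1 to mt-Nd5, which lie far apart, had a spread of 1.5-fold.

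Nuclear-encoded partners of the members were also higher with PGC-1α. Of 37 nuclear-encoded complex I subunits, 36 were tested. In PGC-1α vs Ctrl, all 36 had a log2 fold change above 0, with a median of 0.40, and 5 were at least 1.5-fold higher, where 45.8% of all genes were above 0 and 4.91% were at least 1.5-fold higher. By their most abundant transcript, Ndufs7 and Ndufb5 had -0.14 and -0.04. The largest values were those of Ndufb10, an accessory subunit of the membrane arm (38.0 FPKM to 87.4 FPKM, log2 fold change 1.18), and of Ndufs1 (29.4 FPKM to 57.9 FPKM, 0.96) and Ndufs3 (38.7 FPKM to 72.6 FPKM, 0.89), core subunits of the matrix arm. In PGC-1α+OGD vs Ctrl+OGD, 31 of the 36 were above 0, against 47.1% of all genes, and the median was 0.14. By their most abundant transcript, Ndufs1, Ndufv3 and Ndufab1, which were among those above 0, had -0.41, -0.24 and -0.02. The subunits below 0 stayed below it. In this comparison, Ndufb10 (58.2 FPKM to 119 FPKM, 1.02) and Ndufa12 (115 FPKM to 223 FPKM, 0.95) were at least 1.5-fold higher, and Ndufa3 had a log2 fold change of -0.57. Without PGC-1α, OGD gave a median of 0.24 in Ctrl+OGD vs Ctrl, with 35 of the 36 above 0, against 48.0% of all genes. With PGC-1α, OGD gave a median of 0.01, with 19 of the 36 above 0, against 50.1% of all genes. Exons of Ndufs1, Ndufs3 and Ndufa3 overlap those of other genes on the opposite strand.

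**Figure D4:**
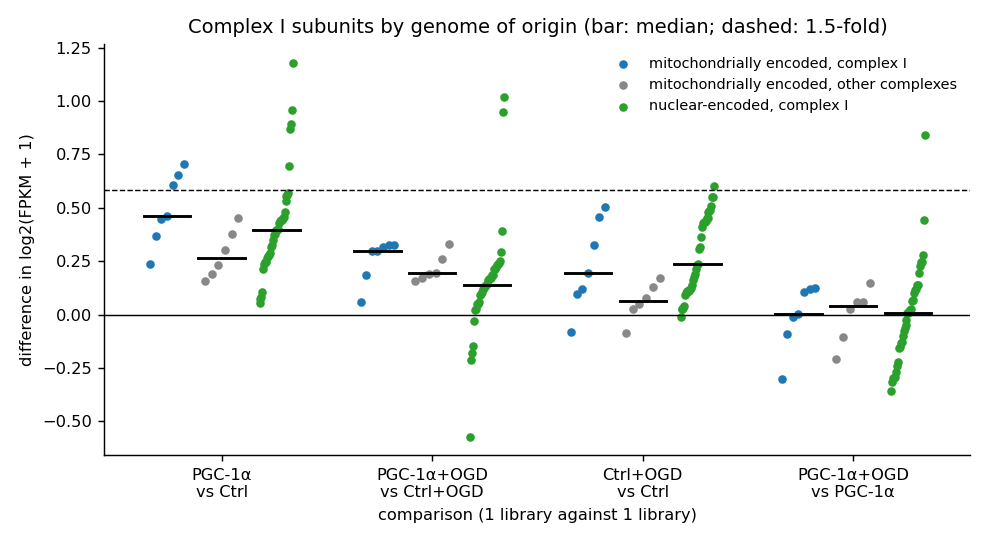
Difference in log2(FPKM + 1) for the 7 mitochondrially encoded complex I subunits (blue), the 6 mitochondrially encoded subunits of other complexes (grey) and 36 nuclear-encoded complex I subunits (green) in the 4 comparisons, with 1 point for each gene, a bar at each median and a dashed line at 1.5-fold. Medians of the blue, grey and green points are 0.46, 0.27 and 0.40 in PGC-1α vs Ctrl, and 0.00, 0.04 and 0.01 in PGC-1α+OGD vs PGC-1α.

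Most genes for transcription and upkeep of the mitochondrial genome stayed within 1.5-fold, as most of all genes did. Of 18 such genes, 17 were tested, and in PGC-1α vs Ctrl their median log2 fold change was -0.14, with 3 of them above 0, against 45.8% of all genes. At least 1.5-fold higher were 2 of them and at least 1.5-fold lower was 1, where 4.91% of all genes were higher and 5.63% were lower. In PGC-1α+OGD vs Ctrl+OGD, the median was 0.07, with 10 above 0, against 47.1% of all genes. The largest differences without OGD were in Primpol, a primase-polymerase (9.33 FPKM to 2.56 FPKM, log2 fold change -1.54), Mterf3, a repressor of mitochondrial transcription (5.88 FPKM to 15.96 FPKM, 1.30), and Rnaseh1, which removes RNA from RNA-DNA hybrids (8.86 FPKM to 14.3 FPKM, 0.64). With OGD, they were in Rnaseh1 (1.33), Primpol (-1.26) and Polrmt, the mitochondrial RNA polymerase (1.69 FPKM to 3.90 FPKM, 0.87). Ctrl was the lowest library for Mterf3, which after OGD was at 23.8 FPKM in control and 22.7 FPKM in PGC-1α cells (-0.06). Mterf3 and Primpol overlap genes on the opposite strand. Tfam, which packs mitochondrial DNA and starts its transcription, was at 18.3 FPKM in both libraries without OGD, and after OGD at 13.7 FPKM in control and 15.7 FPKM in PGC-1α cells. It is named here after its values were seen.

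All 19 genes for processing and stability of mitochondrial RNA were tested. Their median log2 fold change was 0.17 in PGC-1α vs Ctrl and 0.14 in PGC-1α+OGD vs Ctrl+OGD, with 12 and 14 genes above 0, against 45.8% and 47.1% of all genes. Without OGD, the largest differences were in Tbrg4, also known as FASTKD4, which stabilises several mitochondrial mRNAs (1.89 FPKM to 4.89 FPKM, 1.03), Fastk, a form of which is needed for the mt-Nd6 mRNA (2.13 FPKM to 4.06 FPKM, 0.70), and Hsd17b10, a part of mitochondrial RNase P (54.7 FPKM to 37.9 FPKM, -0.52). With OGD, they were in Fastkd3 (0.730 FPKM to 2.09 FPKM, 0.84), Tbrg4 (0.55) and Supv3l1, a helicase of mitochondrial RNA decay (0.37). The value of Tbrg4 with OGD was -1.07 when its most abundant transcript stood for the gene. Exons of Fastk and Tbrg4 overlap small RNA genes, and those of Fastk and Supv3l1 overlap genes on the opposite strand.

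Among 18 assembly factors of complex I, 17 were tested, and their median was 0.22 in PGC-1α vs Ctrl and 0.06 in PGC-1α+OGD vs Ctrl+OGD. Ndufaf4 was the largest in both, with log2 fold changes of 1.53 (3.78 FPKM to 12.8 FPKM) and 0.94 (4.07 FPKM to 8.74 FPKM). Tmem70 (1.26) and Ecsit (0.63) followed without OGD, but Ecsit had -0.55 by its most abundant transcript. With OGD, Acad9 (-0.74) and Nubpl (-0.38) followed. Of 12 nuclear regulators of respiratory genes, 9 were tested. Besides Ppargc1a, the largest differences were in Esrra, the estrogen-related receptor through which PGC-1α acts (0.77 without OGD and 0.44 with OGD), in Gabpb1 without OGD (-0.40) and in Gabpa with OGD (0.61). Exons of Ecsit, Acad9, Esrra, Gabpb1 and Gabpa overlap those of other genes, which leaves their values uncertain.

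The nuclear genes with the profile most like that of the members were found by the root mean square distance of log2(FPKM + 1), centred for each gene, over the 4 libraries. They were Gm36210, at a distance of 0.0128, Lsm12 (0.0213), Ndufb7 (0.0229), Fcgr4 (0.0245) and Ndufaf7 (0.0260). Lsm12 was at 34.5 FPKM without and 41.0 FPKM with OGD in control cells, and at 48.7 FPKM and 50.4 FPKM in PGC-1α cells. Ndufb7 was at 94.1, 109, 128 and 129 FPKM in the same order. Gm36210 and Fcgr4 were below 3 FPKM in all libraries, where the added 1 FPKM shrinks differences, so their nearness depends on it. Many nuclear genes had such a profile over 4 points. Of the members, mt-Nd4l lay nearest to the members' mean, at 0.0398, and 24 nuclear genes lay nearer. For mt-Nd6, at 0.129, 617 nuclear genes lay nearer.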

How the data were processed

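The 4 RNA-Seq libraries were grouped by their sample titles. The authors selected poly(A) RNA, prepared stranded libraries, sequenced 150 bp paired-end reads and aligned them to GRCm38 with HISAT2 2.1.0 (version per the labels). The deposited values, taken as FPKM, come from a program and annotation that are not stated in the sources used here. In a search over many step sizes, at most 31.4% of low values lay within 0.1 of a whole-read step. By even spread, 20% would for a fixed step, and the best of many steps cannot be set against that. Whether the values follow whole reads was thus not settled, and depth and precision are unknown. Transcripts were matched to GENCODE M21 by identifier without version (25822 of 25889) and summed for each gene, and genes averaging 1 FPKM or more were kept. The log2 fold change is the difference of log2(FPKM + 1), a scale that understates the change of low genes, and the limit was 1.5-fold. No test was run, as each group has 1 library. Stretches of 31 bases were searched on both strands of all M21 transcripts. Named genes are all members, the 6 other mitochondrially encoded subunits, Ppargc1a, the 3 largest absolute differences of a list in a comparison, and the 5 nearest profiles. Some genes that this rule names are left out of the text. The members and the 9 gene lists were chosen with earlier results of these data known. Alternatives were other pseudocounts, scalings, filters and fold limits, and the most abundant transcript in place of the sum. The work was done in Python 3.11.15 with pandas 2.3.3, numpy 2.4.6 and, for plots, matplotlib 3.10.9, and the code was tested on simulated data.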

Additional observations from a re-analysis of the deposited data

Results flagged for a closer look

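In 4 members, OGD went with opposite signs in control and in PGC-1α cells, with 1 library in each group, and the difference was not tested. Of all genes, 48.0% lay above 0 for OGD in control cells and 50.1% in PGC-1α cells. The share of all genes with opposite signs was not counted, so the count of members is not a result about them. For each member, the difference between its OGD values equals, by definition, the difference between its PGC-1α values with and without OGD given above. It is therefore not a second result. For mt-Nd3, the log2 fold change was 0.32 in control cells and -0.09 in PGC-1α cells, a difference of -0.42. For mt-Nd6, it was 0.10 and -0.30, a difference of -0.40. The values for mt-Nd4l were 0.12 and -0.01, which differ by -0.13. For mt-Nd5, they were -0.08 and 0.00, which differ by 0.087, and the second of these changed sign with the scaling.

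The median of the genes for transcription and upkeep of the mitochondrial genome also had opposite signs, and these differences were not tested either. It was -0.17 for OGD in control cells and 0.16 for OGD in PGC-1α cells, a difference of 0.33. For PGC-1α, it was -0.14 without OGD and 0.07 with OGD, a difference of 0.21.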

How the results depend on the processing

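The median log2 fold change of the members moved by less than 0.1 under each pseudocount and each of the 4 scalings, in each of the 4 comparisons. In PGC-1α+OGD vs PGC-1α, where it was 0.00, its sign changed with the scaling, as did that of mt-Nd5. No other member changed sign under a scaling, and a scaling moved the median of all genes by at most 0.08. At a limit of 0.32 in place of 0.585 on the log2 scale, 6 members were higher in PGC-1α vs Ctrl, 2 in PGC-1α+OGD vs Ctrl+OGD and 3 in Ctrl+OGD vs Ctrl, and at 2-fold the first count was 0. The share of all genes past these other limits was not counted, so these counts have no background to be set against. With libraries scaled to the same total, 2 members were at least 1.5-fold higher in PGC-1α vs Ctrl. Counted in fragments (FPKM times length), the members made up 43.1% of the 13 subunits in Ctrl, 45.1% in Ctrl+OGD and 47.0% in both PGC-1α libraries. With the most abundant transcript for each gene, the share of all genes at least 1.5-fold higher was 7.80% in PGC-1α vs Ctrl, 5.84% in PGC-1α+OGD vs Ctrl+OGD, 9.59% in Ctrl+OGD vs Ctrl and 7.46% in PGC-1α+OGD vs PGC-1α, and that of lower genes in the first, second and last of these was 9.30%, 7.23% and 8.73%. Among genes averaging 100 FPKM or more, these shares were 4.98%, 0.515%, 9.62% and 1.89% higher and 2.23%, 1.03%, 2.06% and 1.55% lower. No replicate could be left out, and no paired analysis was possible because each group has 1 library.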
